A study of Mus musculus with 14 samples.

Results

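The SOX transcription factors are described here in the mouse prostate, as 8 genes: *Sox2*, *Sox4*, *Sox7*, *Sox9*, *Sox11*, *Sox17*, *Sox18* and *Sox21*. Their probe sets were found through the platform's gene annotation, and each gene is represented by whichever of its probe sets was brightest, by mean log2 signal over all arrays. They are 8 of the 17149 genes with 1 gene symbol and a signal above 20 on at least 1 array, and 8 of the 20 SOX family genes looked up. All 8 were measured, by 25 probe sets, of which 24 had a signal above 20 on at least 1 array. The remaining 1, for *Sox4*, stayed below 20 throughout and was not tested.

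Expression was profiled on 14 arrays, 1 per sample. The fetal population was urogenital sinus epithelium (UGE) from 16-day-old C57BL/6 embryos, on 3 arrays. The adult populations came from the prostates of male C57BL mice aged 6 to 8 weeks, sorted by flow cytometry on the surface protein Sca-1: Sca-1Hi cells with high staining (3 arrays), Sca-1Lo cells with medium to low staining (4 arrays) and Sca-1Neg cells without staining (4 arrays). The strain and age of the adults are those of the labels, and the methods name C57BL/6 and 6 weeks. The study compared UGE, taken as rich in fetal stem cells, Sca-1Hi, rich in adult stem cells, and Sca-1Lo, rich in transit-amplifying cells, with Sca-1Neg, the most mature cells. The adult cells were dissociated from the part of the ducts nearest the urethra, and the UGE cells were not sorted. The labels do not say whether the samples of a population came from separate animals, so p-values measure the spread between these samples, which may be technical.

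SOX proteins bind DNA through an HMG box related to that of the sex-determining factor SRY, bend it, and act together with partner factors. They fall into groups by the similarity of this box. *Sox2* and *Sox21* belong to SoxB, in which *Sox2* keeps progenitor cells of many epithelia and of the nervous system in their state and *Sox21* is known as a repressor that opposes it in neural cells. *Sox4* and *Sox11* belong to SoxC, which is widely expressed in embryonic progenitors. *Sox9* belongs to SoxE, and takes part in cartilage formation, testis determination and the budding of the prostate. *Sox7*, *Sox17* and *Sox18* belong to SoxF and act in blood and lymph vessels, and *Sox17* also in endoderm.

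Facts of the whole set touch several results. Median signals per array were 64.3 to 70.6 in UGE, 76.3 to 81 in Sca-1Hi, 67.5 to 80.2 in Sca-1Lo and 67.6 to 71.9 in Sca-1Neg. The log2 ratio of the 3′ to the 5′ *Gapdh* control probe set, a sign of RNA quality, was 1.83 to 2.38 in UGE, 3.07 to 3.48 in Sca-1Hi, 1.98 to 3.22 in Sca-1Lo and 1.66 to 2.75 in Sca-1Neg, and its part in the results was not tested. Markers of other cell types were present. The summed signal of 10 leukocyte markers was 1544 to 2488 in UGE, 1204 to 2785 in Sca-1Hi, 2441 to 10971 in Sca-1Lo and 6687 to 56088 in Sca-1Neg. The androgen-dependent secretory gene *Pbsn* was at 13.5 or less on every UGE array and at 8702 or more on every adult array. UGE replicate 1 had the highest summed signal of 10 fibroblast and smooth muscle markers among UGE arrays (18280, against 6073 and 6688 on the other two). Sca-1Neg replicate 4 had 12534 for the glial gene *Sox10*. In such bulk samples, fewer cells of a type and less RNA per cell cannot be told apart.

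Against Sca-1Neg and by the representative probe sets, *Sox2* and *Sox7* rose in all 3 progenitor-rich populations. Each of the other 6 genes rose in at least 1 of them. A gene was called when its adjusted p was below 0.05 over all probe sets tested and its log2 difference was above 0.81 either way, the study's fold minimum. In UGE against Sca-1Neg, 5 of 8 rose (*Sox2*, *Sox4*, *Sox7*, *Sox11* and *Sox21*) and 1 fell (*Sox18*), against 14.9% of all 41031 probe sets called higher and 10.9% called lower. In Sca-1Hi against Sca-1Neg, 7 of 8 rose, all but *Sox11*, and 0 fell, against 7.65% and 4.28% of all probe sets. In Sca-1Lo against Sca-1Neg, 5 of 8 rose (*Sox2*, *Sox7*, *Sox11*, *Sox17* and *Sox18*) and 0 fell, against 1.24% and 0.663%. The median log2 difference of the 8 genes was 1.89 in UGE, 2.62 in Sca-1Hi and 1.91 in Sca-1Lo, each against Sca-1Neg, beside 0.08, 0.12 and 0.11 for all probe sets. These 3 comparisons share the Sca-1Neg arrays. By the methods' t-test with Benjamini-Hochberg adjustment, 4 of 8 were called in UGE, 3 in Sca-1Hi and 1 in Sca-1Lo. The count for Sca-1Lo ranged from 3 without Sca-1Lo replicate 3 to 7 without Sca-1Neg replicate 3. Within the adult arrays that carry early numbers in the study's own tables, 5 of 8 rose in Sca-1Hi and 4 of 8 in Sca-1Lo, and within those with late numbers 4 of 8 and 2 of 8. The early set holds 1 Sca-1Hi array, which is assumed to vary like the other groups.

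Between the progenitor-rich populations the 8 genes differed in direction. In UGE against Sca-1Hi, 1 rose (*Sox11*) and 4 fell (*Sox9*, *Sox17*, *Sox18* and *Sox21*), against 13.3% and 12.1% of all probe sets called higher and lower. In UGE against Sca-1Lo, 3 rose (*Sox2*, *Sox4* and *Sox11*) and 2 fell (*Sox17* and *Sox18*), against 11.4% and 10.5% of all probe sets. Without UGE replicate 2, 2 of 8 were called. In Sca-1Hi against Sca-1Lo, 0 of 8 were called by limma, against 0.0439% of all probe sets called higher and 0.0219% called lower. At an unadjusted p under 0.05, 2 of 8 were higher in Sca-1Hi than in Sca-1Lo, namely *Sox4* (log2 difference 1.51, 95% interval 0.32 to 2.70) and *Sox21* (1.38, 0.75 to 2.02), beside 4031 of all probe sets in either direction. With array weights in the fit *Sox21* alone was called, and by the methods' t-test 0 were.

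**Figure D1:**
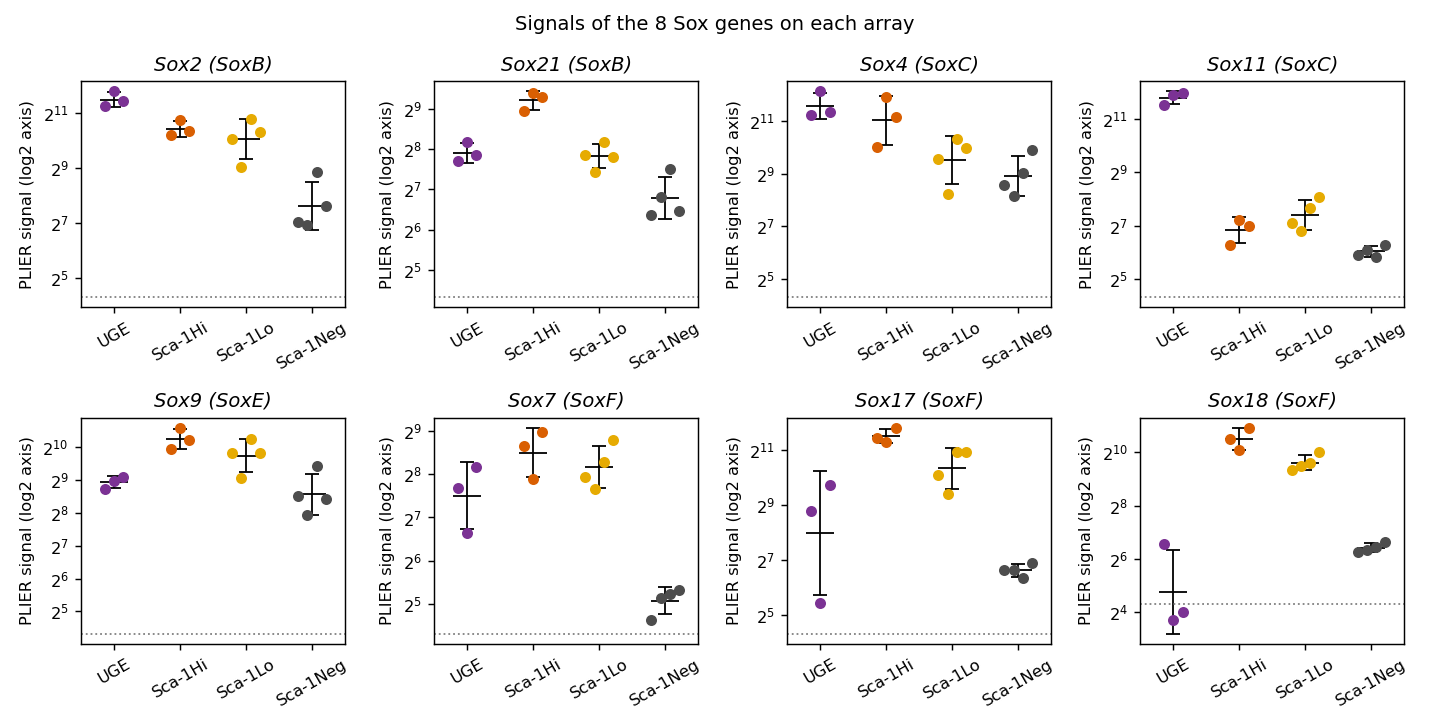
PLIER signal on a log2 axis for each of the 8 Sox genes in UGE, Sca-1Hi, Sca-1Lo and Sca-1Neg, 1 point per array, with the mean of log2 signals and 1 SD; the dotted line marks a signal of 20. *Sox11* stands apart in UGE (2954 to 4014), and *Sox18* is high in Sca-1Hi (1081 to 1923) and Sca-1Lo (655 to 1035) only.

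*Sox2*, a SoxB gene, was higher in UGE, Sca-1Hi and Sca-1Lo than in Sca-1Neg. Its signals were 2421, 3535 and 2751 in UGE, 1167, 1711 and 1313 in Sca-1Hi, 1072, 533, 1741 and 1284 in Sca-1Lo, and 133, 123, 464 and 197 in Sca-1Neg. Every array of UGE, Sca-1Hi and Sca-1Lo lay above every Sca-1Neg array, and Sca-1Hi and Sca-1Lo overlapped. *Sox2* was 14.6-fold higher in UGE than in Sca-1Neg (log2 difference 3.87 ± 0.46 SE, adjusted p = 4.4e-05). It was 7.02-fold higher in Sca-1Hi than in Sca-1Neg (2.81 ± 0.46, adjusted p = 0.00215) and 5.41-fold higher in Sca-1Lo than in Sca-1Neg (2.44 ± 0.42, adjusted p = 0.0114). UGE exceeded Sca-1Lo 2.70-fold (adjusted p = 0.0376), a call lost without any 1 UGE array, Sca-1Hi replicate 3 or Sca-1Lo replicate 1, 2 or 4. UGE was above Sca-1Hi on every array, but the difference of 1.06 missed the threshold (95% interval 0.00 to 2.11, adjusted p = 0.131). Sca-1Hi and Sca-1Lo did not differ beyond their spread (0.38, 95% interval -0.61 to 1.36).

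*Sox21*, the other SoxB gene, was highest in Sca-1Hi. It had signals of 208, 290 and 231 in UGE, 496, 672 and 624 in Sca-1Hi, 233, 174, 292 and 225 in Sca-1Lo, and 82.8, 111, 181 and 88.5 in Sca-1Neg. The Sca-1Hi arrays lay above all others, UGE overlapped with Sca-1Lo, and Sca-1Lo replicate 2 lay below the highest Sca-1Neg array. *Sox21* rose 5.37-fold in Sca-1Hi against Sca-1Neg (2.43 ± 0.29, adjusted p = 0.000351) and 2.18-fold in UGE against Sca-1Neg (1.13 ± 0.29, adjusted p = 0.0121). It was 2.46-fold lower in UGE than in Sca-1Hi (-1.30 ± 0.31, adjusted p = 0.00795). Sca-1Lo differed from Sca-1Neg by 1.04 (adjusted p = 0.0702), which passed the threshold without Sca-1Neg replicate 3, and the call of UGE against Sca-1Neg was lost without UGE replicate 2 (adjusted p = 0.0626). The second probe set for *Sox21*, with signals of 17.0 to 67.7, was called higher in UGE (1.4) and in Sca-1Hi (1.08) than in Sca-1Neg too. It gave a difference of 0.32 between UGE and Sca-1Hi (adjusted p = 0.492), so the order of these 2 populations rested on the brighter probe set.

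Basal cell markers were also higher in the progenitor-rich populations. All 6 basal epithelial markers, among them keratin genes *Krt5* and *Krt15*, were higher in Sca-1Hi than in Sca-1Neg, against 7.65% of all probe sets. In UGE 4 of 6 and in Sca-1Lo 3 of 6 of these markers were higher than in Sca-1Neg, against 14.9% and 1.24%. Their summed signal was 21716 to 28406 in UGE, 17992 to 27827 in Sca-1Hi, 8772 to 27667 in Sca-1Lo and 1770 to 8022 in Sca-1Neg. Sca-1Neg replicate 3, with the largest basal sum of its population, also had the highest *Sox2*, *Sox21* and *Sox9* signals among the Sca-1Neg arrays. That array also had the largest luminal and secretory (72166), pan-epithelial (15026) and urothelial (5394) marker sums among Sca-1Neg arrays. Its leukocyte sum was the smallest (6687). Sca-1Lo replicate 2 had the smallest basal sum among Sca-1Lo arrays. It had the lowest signal of its population for 7 of the 8 Sox genes, all but *Sox18*. Its median signal over all probe sets was also the lowest of its population (67.5, against 75.2 to 80.2). It carries an early number in the study's tables. The other early Sca-1Lo array had a basal sum of 14874, and the late ones 27667 and 26797. *Sox21* was lower in UGE than in Sca-1Hi by its brighter probe set, and the basal sums of these populations overlapped. Sca-1Lo replicate 3, with a basal sum of 27667, had *Sox21* at 292. The part of basal cell content in these differences was not tested.

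Of 10 partner and target genes of SoxB factors looked up, 9 had a signal above 20 on any array. Of these, 0 rose and 3 fell in UGE against Sca-1Neg, and 0 rose and 1 fell in Sca-1Hi against Sca-1Neg. Over all probe sets, 14.9% and 7.65% were called higher in these comparisons, and 10.9% and 4.28% lower. The POU factor gene *Pou3f3*, whose relatives pair with SOX2 in neural progenitors, fell in both (log2 differences -2.07 and -2.04). The pluripotency partner *Pou5f1* was at 13.5 or less in UGE and at 34.6 or less on every adult array.

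*Sox11*, a SoxC gene, had the largest difference of the 8 genes between UGE and Sca-1Neg. Its signals were 2954, 3849 and 4014 in UGE, 77.5, 149 and 126 in Sca-1Hi, 137, 112, 204 and 267 in Sca-1Lo, and 60.0, 68.4, 56.9 and 78.3 in Sca-1Neg. No adult array came near the UGE arrays. *Sox11* was 54.6-fold higher in UGE than in Sca-1Neg (5.77 ± 0.32, adjusted p = 7.6e-08), 31.5-fold higher than in Sca-1Hi (adjusted p = 6.17e-07) and 21.0-fold higher than in Sca-1Lo (adjusted p = 8.37e-07). All 6 of its probe sets were called higher in UGE in all 3 comparisons. One of them averaged 1011 ± 169 in UGE (SD, n = 3) and below 20 in each adult population, so that with lower signals set to 20 it was at least 50.1-fold higher in UGE than in Sca-1Neg or Sca-1Hi and at least 42.6-fold higher than in Sca-1Lo.

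Among adult cells *Sox11* was 2.60-fold higher in Sca-1Lo than in Sca-1Neg (1.38 ± 0.30, adjusted p = 0.0319), with all 4 Sca-1Lo arrays above all Sca-1Neg arrays. This was 1 of its 6 probe sets, and the call was lost without Sca-1Lo replicate 1, 3 or 4 or Sca-1Neg replicate 1 or 2 (log2 differences 1.16 to 1.58 with any 1 array left out), and it was lost within the early and within the late arrays. It was also lost with the replicate number as a block over the Sca-1Lo and Sca-1Neg arrays (adjusted p = 0.0666). Sca-1Hi and Sca-1Neg overlapped for *Sox11* (0.79, 95% interval 0.10 to 1.48, adjusted p = 0.122).

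*Sox4*, the second SoxC gene, was high in UGE and variable in Sca-1Hi. It had 2394, 4476 and 2604 in UGE, 1044, 3833 and 2261 in Sca-1Hi, 745, 301, 1276 and 999 in Sca-1Lo, and 376, 284, 516 and 962 in Sca-1Neg. The UGE arrays exceeded all Sca-1Lo and Sca-1Neg arrays, and Sca-1Hi overlapped with UGE and with Sca-1Lo. *Sox4* rose 6.32-fold in UGE against Sca-1Neg (2.66 ± 0.55, adjusted p = 0.00305) and 4.15-fold in UGE against Sca-1Lo (2.05 ± 0.55, adjusted p = 0.0163, lost without UGE replicate 2). It rose 4.34-fold in Sca-1Hi against Sca-1Neg (2.12 ± 0.55, adjusted p = 0.0249), a call lost without Sca-1Hi replicate 2 or 3 or Sca-1Neg replicate 1 or 2. Sca-1Lo and Sca-1Neg did not differ beyond their spread (0.61, 95% interval -0.49 to 1.71).

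The 7 tested probe sets of *Sox4* differed in the size of the difference. In UGE against Sca-1Neg 5 of 7 were called higher and in Sca-1Hi against Sca-1Neg 3 of 7. A second *Sox4* probe set had 3956, 4862 and 4935 in UGE, 608, 2428 and 1473 in Sca-1Hi, 491, 340, 1175 and 1034 in Sca-1Lo, and 579, 418, 374 and 968 in Sca-1Neg. There the UGE arrays stood above every adult array, with a 3.52-fold difference from Sca-1Hi (1.82, adjusted p = 0.0259), where the representative probe set gave 0.54 (adjusted p = 0.545). Of the 7 probe sets, 2 were called higher in UGE than in Sca-1Hi.

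Of the genes known as SoxC targets, 4 were looked up, and 3 were higher in UGE than in each adult population. Over all probe sets, 14.9%, 13.3% and 11.4% were called higher in UGE than in Sca-1Neg, Sca-1Hi and Sca-1Lo. Whether SoxC factors act on these genes here was not tested. *Ezh2*, the methyltransferase of the Polycomb repressive complex, had 2103, 2557 and 2799 in UGE and 228 to 403 on the adult arrays (9.21-fold higher in UGE than in Sca-1Neg, adjusted p = 9.09e-07). *Tead2*, a partner of the Hippo effector YAP, was 3.76-fold higher in UGE than in Sca-1Neg (adjusted p = 0.00127) and 3.55-fold lower in Sca-1Hi than in Sca-1Neg (adjusted p = 0.00517). The neuronal tubulin gene *Tubb3* had 3176, 63.1 and 58.7 in UGE and at most 26.8 on any adult array, so its fold rested largely on UGE replicate 1. The summed signal of 6 neuroendocrine markers was 746, 125 and 115 on the UGE arrays. That of 6 Schwann cell and nerve markers was 521, 276 and 200. The part of such cells in the *Tubb3* signal was not tested. Among UGE arrays *Sox11* was lowest on replicate 1 by its representative probe set (2954). By another of its probe sets it was highest there (1092, against 1064 and 967). The fourth target, *Dcx*, was called in no comparison.

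The promoters of the 3 genes called higher in UGE against both Sca-1Neg and Sca-1Lo are shown, chosen for these shared calls. They span 250 bases before and 50 after the annotated start (RefSeq, GRCm38.p6). *Sox11* is at chr12:27342669-27342968 on the minus strand, *Sox4* at chr13:28953650-28953949 on the minus strand and *Sox2* at chr3:34649745-34650044 on the plus strand. Capitals mark the CCAAT box, searched as CCAAT on both strands (ATTGG where it lies on the other strand), which does not overlap with itself or the second motif here.
Sox11: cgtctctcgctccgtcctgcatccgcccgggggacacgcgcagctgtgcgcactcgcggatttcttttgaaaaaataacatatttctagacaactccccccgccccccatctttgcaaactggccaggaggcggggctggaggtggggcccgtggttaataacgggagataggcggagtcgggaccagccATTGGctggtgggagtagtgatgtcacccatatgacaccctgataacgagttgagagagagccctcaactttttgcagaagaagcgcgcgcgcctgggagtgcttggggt
Sox4: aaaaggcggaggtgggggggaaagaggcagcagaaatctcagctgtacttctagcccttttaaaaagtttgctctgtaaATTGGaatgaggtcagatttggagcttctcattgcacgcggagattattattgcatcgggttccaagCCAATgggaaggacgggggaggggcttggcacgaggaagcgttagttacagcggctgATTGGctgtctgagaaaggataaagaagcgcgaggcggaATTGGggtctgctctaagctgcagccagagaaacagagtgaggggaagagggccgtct
Sox2: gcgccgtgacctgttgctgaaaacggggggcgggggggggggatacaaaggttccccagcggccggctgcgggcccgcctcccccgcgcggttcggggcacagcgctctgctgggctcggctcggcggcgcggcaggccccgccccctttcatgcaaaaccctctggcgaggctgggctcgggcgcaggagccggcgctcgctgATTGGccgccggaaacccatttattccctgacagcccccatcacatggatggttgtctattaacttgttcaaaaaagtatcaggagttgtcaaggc
The CCAAT box occurred 4 times in the *Sox4* promoter and 1 time each in those of *Sox11* and *Sox2*, and was not found in the same window of *Sox21*. It is held by 37.4% of all 32851 promoters of this length. The SOX core motif, searched as ACAAT on both strands, was in none of these 4 windows and in 31.0% of all promoters. Matches of so few letters are a description of the windows and not of binding.

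*Sox9*, the SoxE gene, was called higher than in Sca-1Neg in Sca-1Hi, by its representative probe set, and not in Sca-1Lo or UGE. Its signals were 427, 501 and 551 in UGE, 990, 1534 and 1192 in Sca-1Hi, 906, 530, 1210 and 914 in Sca-1Lo, and 364, 243, 689 and 340 in Sca-1Neg. All Sca-1Hi arrays lay above all UGE and Sca-1Neg arrays, whereas UGE lay within the range of Sca-1Neg. *Sox9* rose 3.21-fold in Sca-1Hi against Sca-1Neg (1.68 ± 0.35, adjusted p = 0.00873), a call lost without Sca-1Hi replicate 2 (adjusted p = 0.0578). It was 2.48-fold lower in UGE than in Sca-1Hi (-1.31 ± 0.38, adjusted p = 0.0204), lost without UGE replicate 1 or 2 or Sca-1Hi replicate 2 or 3. UGE and Sca-1Neg differed by 0.37 (95% interval -0.39 to 1.13, adjusted p = 0.468). The difference of Sca-1Lo from Sca-1Neg was 1.17 (adjusted p = 0.0916), past the threshold without Sca-1Lo replicate 2 or Sca-1Neg replicate 3.

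The other 2 probe sets of *Sox9* were not called in Sca-1Hi against Sca-1Neg (0.98 and 1.02), and 1 of them was called lower in UGE than in Sca-1Hi (-1.42) and than in Sca-1Lo (-1.25). Of 8 SoxE target genes of cartilage and testis looked up, 7 had a signal above 20 on any array. None rose in any of the 6 comparisons, where 0.0439% to 14.9% of all probe sets were called higher. Only 1, the cartilage proteoglycan gene *Acan*, fell in UGE (-2.10) and in Sca-1Hi (-1.95) against Sca-1Neg. Of all probe sets, 10.9% and 4.28% were called lower there.

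Of the 8 genes, the 3 SoxF genes had the largest differences of Sca-1Hi and of Sca-1Lo from Sca-1Neg. *Sox17* had 439, 43.6 and 857 in UGE, 2800, 2482 and 3572 in Sca-1Hi, 1081, 680, 1967 and 1932 in Sca-1Lo, and 99.9, 99.2, 80.6 and 119 in Sca-1Neg. The Sca-1Hi arrays stood above all others and the Sca-1Lo arrays above all Sca-1Neg arrays, while the UGE arrays spread from below Sca-1Neg into the range of Sca-1Lo. *Sox17* rose 29.5-fold in Sca-1Hi (4.88 ± 0.74, adjusted p = 0.00142) and 13.1-fold in Sca-1Lo (3.71 ± 0.68, adjusted p = 0.0147) against Sca-1Neg, the second lost without Sca-1Lo replicate 3 or 4. It was 11.5-fold lower in UGE than in Sca-1Hi (-3.52 ± 0.79, adjusted p = 0.00506), which shrank to -2.25 without UGE replicate 2. It was 5.09-fold lower in UGE than in Sca-1Lo (adjusted p = 0.0346, lost without UGE replicate 2 or Sca-1Lo replicate 1, 3 or 4). UGE against Sca-1Neg was not called (1.36, adjusted p = 0.191), but was without UGE replicate 2 (2.63, adjusted p = 0.00121). The second *Sox17* probe set gave the same 4 calls, with 71.7, 24.7 and 101 in UGE.

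*Sox18* had 93.7, 13 and 16.3 in UGE, 1455, 1081 and 1923 in Sca-1Hi, 655, 712, 785 and 1035 in Sca-1Lo, and 76.8, 81.5, 86.5 and 99.6 in Sca-1Neg, by its only probe set. Sca-1Hi and Sca-1Lo did not overlap with each other, with UGE or with Sca-1Neg, and 2 of 3 UGE arrays lay below 20, so that its folds against UGE depend on values near background. *Sox18* rose 16.9-fold in Sca-1Hi (4.08 ± 0.52, adjusted p = 0.000481) and 9.15-fold in Sca-1Lo (3.19 ± 0.48, adjusted p = 0.00486) against Sca-1Neg. It was 53.5-fold lower in UGE than in Sca-1Hi (adjusted p = 8.76e-06) and 29.0-fold lower than in Sca-1Lo (adjusted p = 1.77e-05). The 3.17-fold fall in UGE against Sca-1Neg (-1.66 ± 0.52, adjusted p = 0.0288) overlapped with it through UGE replicate 1 and was lost without UGE replicate 2 or 3 or Sca-1Neg replicate 1, 2 or 4. With signals below 20 set to 20, a setting chosen after seeing the data, *Sox18* was 43.2-fold lower in UGE than in Sca-1Hi (adjusted p = 1.02e-05), 23.4-fold lower than in Sca-1Lo (adjusted p = 2.26e-05) and 2.56-fold lower than in Sca-1Neg (adjusted p = 0.045). The difference of Sca-1Hi from Sca-1Lo missed the threshold (0.88, 95% interval -0.23 to 1.99).

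*Sox7* had 204, 101 and 287 in UGE, 399, 235 and 505 in Sca-1Hi, 246, 202, 310 and 444 in Sca-1Lo, and 24.7, 35.2, 37.5 and 40.0 in Sca-1Neg. The Sca-1Neg arrays lay below all others, and UGE, Sca-1Hi and Sca-1Lo overlapped. *Sox7* rose 10.7-fold in Sca-1Hi (3.42 ± 0.39, adjusted p = 0.000229), 8.52-fold in Sca-1Lo (3.09 ± 0.36, adjusted p = 0.00107) and 5.35-fold in UGE (2.42 ± 0.39, adjusted p = 0.000521), each against Sca-1Neg. No array left out removed any of these 3 calls. A dimmer probe set for *Sox7* was called higher in Sca-1Hi than in Sca-1Neg (2.34, adjusted p = 0.0262). It was not called in UGE (-0.33, adjusted p = 0.733) or Sca-1Lo (0.80, adjusted p = 0.621) against Sca-1Neg. Its signals were 25.7 to 32.0 in UGE and 28.3 to 47.5 in Sca-1Neg, and UGE was lower than Sca-1Hi (-2.67, adjusted p = 0.00917).

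**Figure D2:**
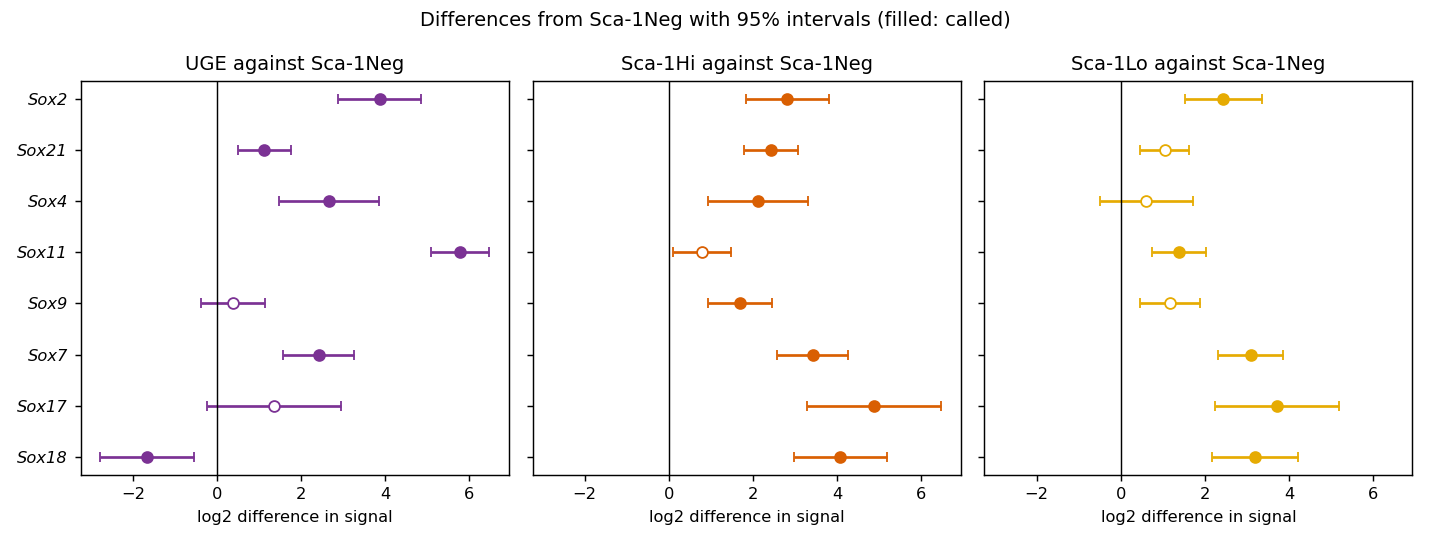
Log2 difference in signal from Sca-1Neg in UGE, Sca-1Hi and Sca-1Lo for the probe set that represents each of the 8 genes, with 95% intervals from limma; filled points are called. *Sox11* has the largest difference in UGE (5.77) and *Sox17* in Sca-1Hi (4.88) and Sca-1Lo (3.71).

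The SoxF genes and endothelial markers were high on the same adult arrays. Of 15 endothelial markers, 14 were higher in Sca-1Hi and 13 in Sca-1Lo than in Sca-1Neg, against 7.65% and 1.24% of all probe sets. In UGE 10 of the 15 were lower than in Sca-1Neg, against 10.9% of all probe sets. These markers had 0 changes in the opposite directions. Their summed signal was 415 to 1081 in UGE, 16499 to 29684 in Sca-1Hi, 7952 to 20403 in Sca-1Lo and 1889 to 5006 in Sca-1Neg. In UGE, 2 of 15 were at or below 20 on every array and none was at 0. *Cdh5*, the VE-cadherin of endothelial junctions, had 133, 14 and 24.1 in UGE, 1536, 1221 and 2351 in Sca-1Hi, 911, 902, 1308 and 1870 in Sca-1Lo, and 75.3, 146, 131 and 152 in Sca-1Neg. In UGE, *Sox18* and *Cdh5* were both highest on replicate 1.

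In UGE, *Sox17* and, by its brighter probe set only, *Sox7* did not follow these markers. UGE replicate 3 had the lowest endothelial sum of all 14 arrays and the highest *Sox17* (857) and *Sox7* (287) signals among UGE arrays, above every Sca-1Neg array for both genes. *Sox7* was also above every Sca-1Neg array in UGE replicate 2, where *Cdh5* was 14 and *Sox17* 43.6. The part of endothelial cells in the rise of the SoxF genes in Sca-1Hi and Sca-1Lo was not tested.

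**Figure D3:**
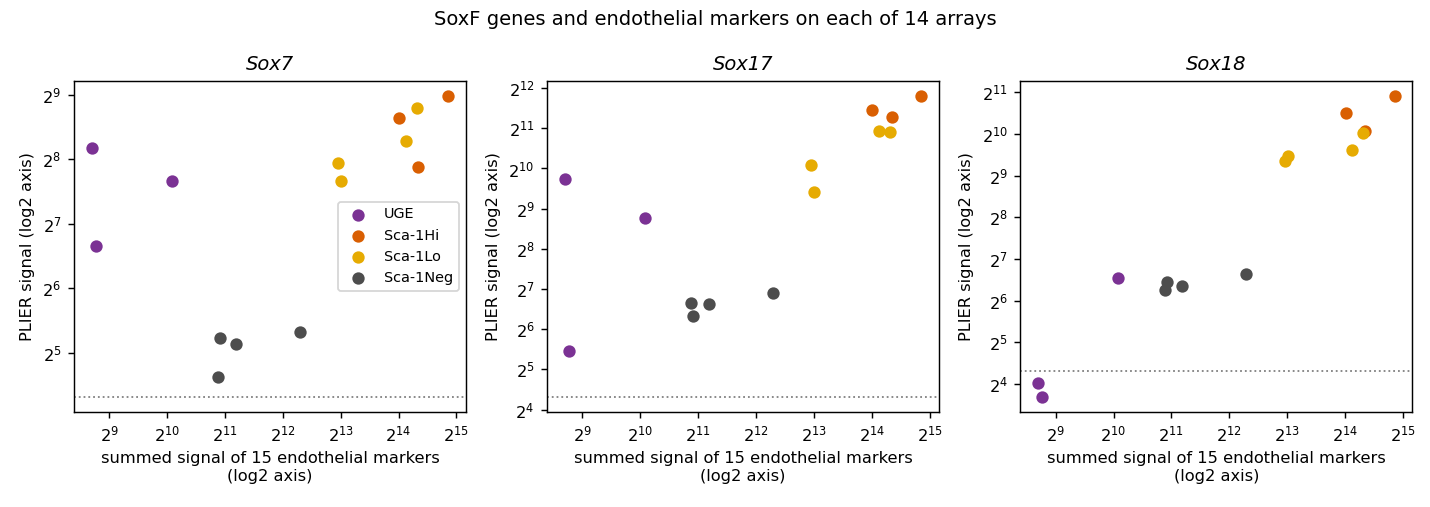
Signal of the probe sets that represent *Sox7*, *Sox17* and *Sox18* against the summed signal of 15 endothelial markers, both on log2 axes, 1 point per array. The dotted line marks a signal of 20. *Sox18* lies along 1 band over all populations, whereas *Sox7* and *Sox17* on the UGE arrays with sums of 415 and 1081 lie above the Sca-1Neg arrays, whose sums are 1889 to 5006.

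Of 10 SoxF targets and partners, 4 rose in Sca-1Hi and the same number in Sca-1Lo against Sca-1Neg, and in both these were *Cdh5*, *Cldn5*, *Robo4* and *Egfl7*, which are also on the endothelial list. *Cldn5*, the tight junction claudin of endothelium, was 28.0-fold higher in Sca-1Hi and 7.92-fold higher in Sca-1Lo than in Sca-1Neg. In UGE 0 rose and 4 fell against Sca-1Neg, among them *Mef2c*, a myocyte enhancer factor that partners SOX18 (log2 difference -4.78, adjusted p = 9.64e-05). Of all probe sets, 7.65% and 1.24% were called higher in Sca-1Hi and Sca-1Lo, and 14.9% higher and 10.9% lower in UGE, each against Sca-1Neg.

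Of the 12 other SOX family genes, 9 had a representative signal above 20 on any array, and *Sox1*, *Sox8* and *Sox30* did not. In UGE against Sca-1Neg 1 of 9 rose and 2 fell, and in Sca-1Hi against Sca-1Neg 1 rose and 1 fell, against 14.9% and 10.9% of all probe sets called higher and lower in UGE and 7.65% and 4.28% in Sca-1Hi. These counts are near those shares. *Sox12*, the third SoxC gene, had 934, 943 and 906 in UGE and 171 to 472 on the adult arrays. It was higher in UGE than in Sca-1Neg (1.57, adjusted p = 0.000925), Sca-1Hi (2.06, adjusted p = 0.000209) and Sca-1Lo (1.38, adjusted p = 0.00255), so all 3 SoxC genes were higher in UGE than in Sca-1Neg and Sca-1Lo. The SoxD gene *Sox13* was lower in UGE than in Sca-1Neg (-1.62), Sca-1Hi (-2.59) and Sca-1Lo (-1.85).

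*Sox6*, a SoxD gene that works with *Sox9* in cartilage, went the other way from *Sox9* in Sca-1Hi. It had 278, 368 and 239 in UGE, 61.0, 51.4 and 81.8 in Sca-1Hi, 191, 94.2, 155 and 123 in Sca-1Lo, and 607, 446, 169 and 1651 in Sca-1Neg, and was lower in Sca-1Hi than in Sca-1Neg (-3.04, adjusted p = 0.00407). It was higher in UGE than in Sca-1Hi (2.19, adjusted p = 0.0149). *Sox5*, also SoxD, was lower in UGE than in each adult population (-1.03, -1.35 and -1.26 against Sca-1Neg, Sca-1Hi and Sca-1Lo) by a probe set with signals of 16.2 to 76.1, while another of its probe sets was higher in UGE than in Sca-1Hi and Sca-1Lo. *Sox15* was higher in Sca-1Hi than in Sca-1Neg (1.90, adjusted p = 0.00142) and lower in UGE than in Sca-1Hi (-1.40, adjusted p = 0.00439).

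*Sox10*, the glial SoxE gene, was called in no comparison. It had 123, 265, 52.4 and 12534 in Sca-1Neg and 48.2 to 98.5 on the other arrays, and a second probe set had 91.5 in Sca-1Neg replicate 4. On that array the glial genes *Cdh19* (962) and *S100b* (903) were also high, as they were in Sca-1Neg replicate 2 (791 and 1108), and *Sox6* was at its highest.

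The genes whose log2 signals were most like those of each member over the 14 arrays were found by Pearson's r among 17135 genes. The arrays share 4 populations, so the values are descriptions. For *Sox2* they were the desmosome gene *Pkp1* (0.98), *Mpzl2* (0.98) and the basal keratin gene *Krt15* (0.98), and for *Sox21* *Fam83e* (0.95), *Alox15* (0.94) and *Syt8* (0.94). For *Sox11* they were the mitotic kinesin gene *Kif18a* (0.98), *Cdca4* (0.98) and *Syt9* (0.98), and for *Sox4* the DNA polymerase delta gene *Pold1* (0.98), the activin receptor gene *Acvr1b* (0.97) and the centromere gene *Cenpt* (0.96). For *Sox9* they were *Gsto1* (0.97), *Phlda1* (0.96) and *Irx5* (0.96). For *Sox18* they were *Cdh5* (0.99), *Myct1* (0.99) and *Ramp2* (0.99), for *Sox17* *Rasl10a* (0.95), *Igfbp3* (0.94) and *Lemd1* (0.93), and for *Sox7* *Wscd1* (0.95), *Ptprr* (0.94) and *Mm2pr* (0.93). Among the members themselves r ran from -0.54 between *Sox11* and *Sox18* to 0.89 between *Sox7* and *Sox17*.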

How the data were processed

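RNA of 14 samples was amplified by 2-cycle labelling and hybridised to Affymetrix MOE430 2.0 arrays, 1 colour and 1 sample per array. The deposited values are linear probe set intensities, made by the authors with PLIER in 1 model of all arrays. The submitters' processing notes also name MAS5, which the methods use for detection calls. The step that normalizes between arrays is not given in the sources used here. Fetal and adult samples were collected in different ways, and the number of arrays limits the precision.

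Intensities were log2 transformed with nothing added. Of 45101 probe sets, 34958 have 1 gene symbol in the platform annotation, 932 several and 9211 none. The 64 control probe sets were left out, and the test covered the 41031 that exceeded a signal of 20 anywhere. The 4 group means were fitted over all 14 arrays with limma 3.58.1 (lmFit and eBayes) in R 4.3.3, and p-values were adjusted by the Benjamini-Hochberg method over all probe sets. Calls needed an adjusted p below 0.05 and a log2 difference above 0.81 either way, the study's fold minimum. Where all of a group's signals or their mean lay below 20, signals were set to at least 20 and the fold is a lower bound. The fit was tested on simulated data. Tables and figures were made in Python 3.11.15 (matplotlib 3.10.9, pandas 2.3.3).

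Named genes are the 8 Sox genes, the other SOX family genes called in any comparison, up to 4 called genes of each list with the largest changes, and the 3 genes most correlated with each member. *Sox10*, *Cdh19*, *S100b*, *Pbsn*, *Dcx* and the *Gapdh* controls were named after their values were seen. The 8 genes and the gene lists were chosen with earlier results of these data known, so they are no independent evidence. RefSeq promoters (GRCm38.p6) matched 4 of the 8 genes. The alternatives were 2 filters, an offset of 16, quantile and 75th percentile scaling, other tests, array weights, the replicate number as a block, early and late adult arrays, the mean of a gene's probe sets, and each array left out. Chosen after seeing the data were signals below 20 set to 20, and a replicate block over Sca-1Lo and Sca-1Neg alone. In that comparison the deviations of all 4 same-numbered pairs correlated above 0.1 (0.124 to 0.558). For this block the numbers were taken to pair the samples. Sca-1Lo replicates 1 and 4 correlated most with their own number (0.183 and 0.558). Sca-1Lo replicate 2 had 0.414 with its own number and 0.409 with Sca-1Neg replicate 1. Sca-1Lo replicate 3 had 0.124 with its own number and 0.445 with Sca-1Neg replicate 4. Pairing is therefore not shown, and the labels do not state it.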

Additional observations from a re-analysis of the deposited data

Results flagged for a closer look

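In Sca-1Neg replicate 4, *Sox13* had a signal of 804.1, against 199.9 to 235.6 on the other Sca-1Neg arrays, a gap larger than Dixon's 95% critical value for 4 samples. On the same array *Sry* had 6.333, against 49.17 to 58.57 on the other Sca-1Neg arrays. Of 34 groups of 4 arrays tested over the SOX family, 2 were flagged, and chance flags about 1 in 20.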

How the results depend on the processing

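The 8 genes gave 6, 7 and 5 calls in UGE, Sca-1Hi and Sca-1Lo against Sca-1Neg, 5 in UGE against Sca-1Hi, 5 in UGE against Sca-1Lo and 0 in Sca-1Hi against Sca-1Lo. Leaving out 1 array at a time gave 5 to 6, 5 to 7 and 3 to 7 calls in the first 3 comparisons, 4 to 5 in UGE against Sca-1Hi, 2 to 5 in UGE against Sca-1Lo and 0 to 0 in Sca-1Hi against Sca-1Lo. By the t-test over all probe sets, 3 genes were called in Sca-1Hi and 1 in Sca-1Lo against Sca-1Neg, and 2 in UGE against Sca-1Lo. With only the arrays of both groups in the fit, 3 were called in Sca-1Lo against Sca-1Neg. Tested against the fold minimum (treat), 2 were called in Sca-1Lo against Sca-1Neg, 3 in UGE against Sca-1Hi and 2 in UGE against Sca-1Lo. Array weights gave 8 in Sca-1Lo against Sca-1Neg and 1 in Sca-1Hi against Sca-1Lo. The late adult arrays alone gave 4 in Sca-1Hi and 2 in Sca-1Lo against Sca-1Neg. Apart from the settings with fewer arrays, the cause was not tested.

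Directions turned only in differences that were not called. For *Sox21* in UGE against Sca-1Lo (0.08 in the report) quantile scaling gave -0.069, centring on the 75th percentile -0.096, and array weights -0.026. Without UGE replicate 2 it was -0.053 and without Sca-1Lo replicate 2 it was -0.047, the values with 1 array left out running up to 0.20. For *Sox7* in Sca-1Hi against Sca-1Lo (0.33) the late adult arrays gave -0.11. Over the mean of its probe sets, *Sox21* in UGE against Sca-1Hi was no longer called (-0.49). Outside Sca-1Lo against Sca-1Neg, at least 1 of 3 same-numbered pairs in each comparison correlated below 0.1. Whether the replicate numbers pair samples there is not known. The replicate block over all arrays added 1 call, *Sox7* in UGE against Sca-1Hi (adjusted p = 0.0354), and changed no other. The replicate block over Sca-1Lo and Sca-1Neg alone called 4 genes, without *Sox11*. Early and late numbers as a block over the adult arrays added 2 calls in Sca-1Lo against Sca-1Neg, *Sox9* (adjusted p = 0.0428) and *Sox21* (adjusted p = 0.0416), 7 in all, and changed no other. Signals below 20 set to 20 changed no call.

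Signals near 20, as for *Sox18* in UGE, lie close to the array's background and limit its fold there.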
